A study of Mus musculus with 4 samples.

Results

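The SLC25 carriers were taken as every gene that the array files name with a symbol starting Slc25a, leaving out control spots, and these were 32 of 27670 genes on the array, read by 53 probes. They were measured in mouse oocytes that had spent 60 min at 37 °C and 20 MPa of hydrostatic pressure and in control oocytes kept alike but unpressurised; the labels give no strain, age or stage of the oocytes. Each of 4 arrays carried 1 treated pool of 50 oocytes in the red (Cy5) channel and 1 control pool of 50 in the green (Cy3) channel, so dye and treatment cannot be told apart. The submitters describe the 4 replicates as biological. Each pool gave 240 pg of total RNA, which was amplified in 2 rounds before labelling. With 50 cells in a pool, fewer intact cells and less RNA per cell cannot be told apart.

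The SLC25 family is the main set of metabolite transporters of the inner mitochondrial membrane. Each carrier moves a small group of solutes, such as ADP and ATP, phosphate, keto acids, amino acids, cofactors or metal ions, between the cytosol and the matrix. The proteins are built of repeats of the same fold, each with a signature motif, and are made in the cytosol and brought in through the outer membrane and a set of small chaperones. A fully grown oocyte depends on its mitochondria for ATP, while it takes up little glucose itself.

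Of the 43379 spots on each array other than controls, treated pools put 7049 to 11155 well above background and control pools 8309 to 10837. A gene was tested if a single probe of it was well above background on 3 or more arrays in the same channel, which 6917 genes met. Replicate 1 stood apart, since its log2 ratios over all probes correlated at -0.19 to -0.15 with those of the other 3 arrays, which had r of 0.09 to 0.29 among themselves; probes are not independent replicates. The labels give this array the same dyes as the others, and its direction was kept as labelled. Whether its dyes were exchanged was not tested, and an exchange would turn the sign of each of its log2 ratios. Values without replicate 1 are therefore given for the results that lead below. Of 11 oocyte markers on the array, 7 passed background in both channels on all 4 arrays (Zp3, Gdf9, Bmp15, Ooep, Dppa3, Oosp1 and Kit), and Zp2, Nlrp5, Mos and Figla did not meet this. Of 15 cumulus and granulosa markers, treated pools showed 4 and control pools 6 above background on 3 or more arrays, and 6 were above background nowhere. Amh, Foxl2, Fst, Kitl, Star and Fshr were these 6. The 6 measured markers had a summed intensity of 986 to 3691 in treated pools and 1240 to 2771 in control pools, with Tnfaip6 the brightest in each pool. Their median log2 ratio was -0.12 with 4 below 0, where 52.5% of all tested genes were. Of these 4, Hsd17b1 (0 treated and 3 control pools above background) and Inha (2 and 4) passed the filter through the control pools alone. The filter favoured a ratio below 0 for both. Of these 15, Tnfaip6 alone was above background in both channels on all 4 arrays. So were Hba-a1 and Srgn of 5 blood and immune markers on the array. Acta2 and Vim were so detected too, of 8 markers of oviduct epithelium, endothelium and stroma. The part of cells other than oocytes in the results was not tested. The number of arrays limits the precision of every value.

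The first question is which carriers these oocytes showed. Of the 32 carriers 15 were measured (46.9%), against 25% of all genes on the array. The carriers measured included the ADP/ATP carriers Slc25a4, Slc25a5 and Slc25a31, the ATP-Mg/phosphate carrier Slc25a24, the oxoglutarate/malate carrier Slc25a11, the aspartate/glutamate carriers Slc25a12 and Slc25a13 and the ornithine carrier Slc25a15. They also included Slc25a16, linked to coenzyme A, the peroxisomal Slc25a17, the S-adenosylmethionine carrier Slc25a26, the folate/FAD carrier Slc25a32, the iron importer Slc25a37 (mitoferrin) and Slc25a14, related to the uncoupling proteins. By cargo, the measured carriers were 4 of 7 for adenine nucleotides and phosphate, 1 of 4 for carboxylates, 3 of 8 for amino acids and carnitine, 6 of 8 for nucleotides, cofactors and metals, and 1 of 5 uncoupling-related or unassigned ones. By the probe that stood for the gene, Slc25a16 passed background in 3 treated and 4 control pools, and Slc25a37 in 3 of each. The other 13 measured carriers were above background in both channels on all 4 arrays.

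The remaining 17 carriers did not reach the filter. Of these, 13 were above background on no array in either channel. They were Slc25a25 (ATP-Mg/phosphate), the citrate carrier Slc25a1, the dicarboxylate carrier Slc25a10, the oxodicarboxylate carrier Slc25a21, the ornithine carrier Slc25a2, the glutamate carriers Slc25a18 and Slc25a22, the carnitine/acylcarnitine carrier Slc25a20, the basic amino acid carrier Slc25a29, the second mitoferrin Slc25a28, and Slc25a27, Slc25a30 and Slc25a34. The other 4 had a probe above background on 1 or 2 arrays of a channel, and none on more. Of the 2 probes of Slc25a36, a pyrimidine nucleotide carrier, 1 was above it in 1 treated and 2 control pools and the other in 1 of each. Both probes of Slc25a35 reached 1 treated array, and the probe of Slc25a23 reached 1 control array. These counts are per probe, so a carrier can be above background on more arrays over its probes together. A carrier below this limit was not detectable with its probes here, and is not shown to be absent. The number of carriers above background on each array, in order of replicate, was 17, 17, 15 and 16 for treated pools and 15, 16, 16 and 16 for control pools.

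**Figure D1:**
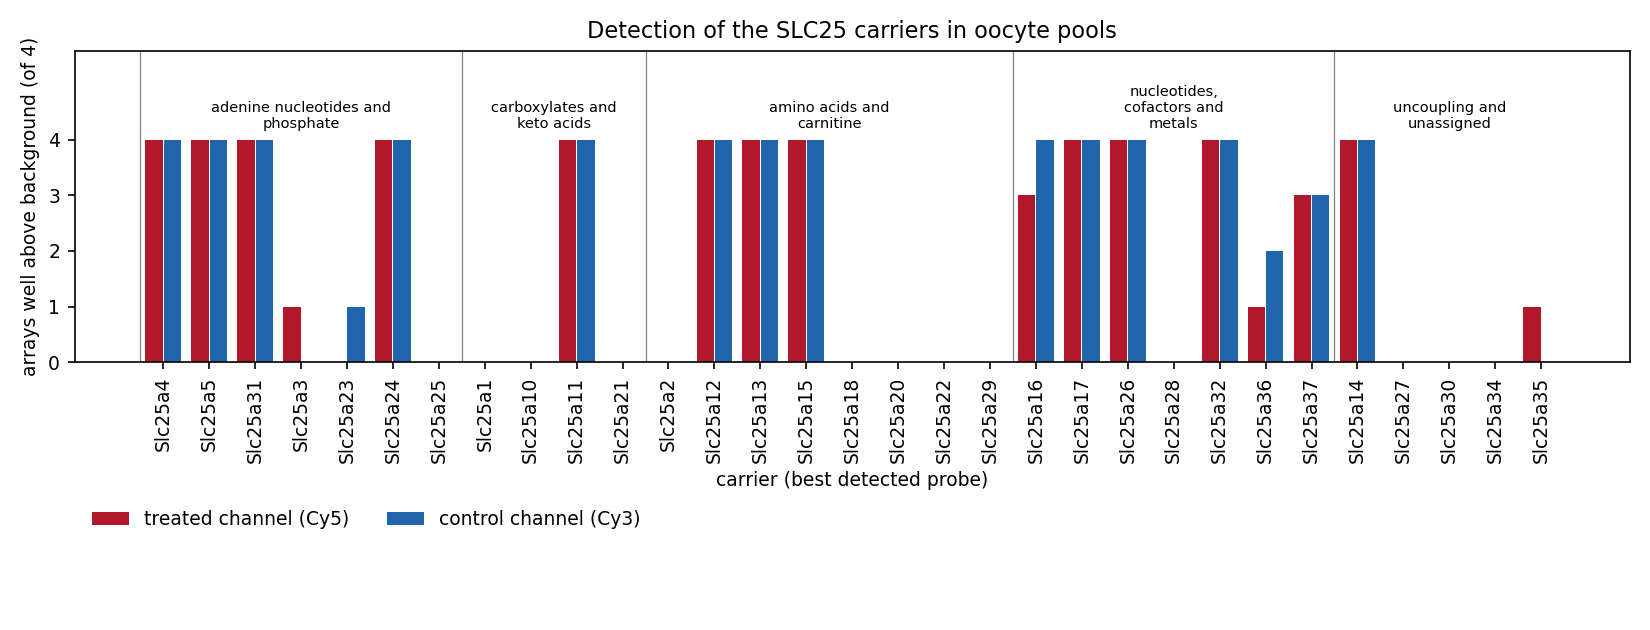
For each of 31 carriers, grouped by cargo, the bars give the number of arrays (of 4) on which its best detected probe was well above background, with the treated channel (red) left of the control channel (blue). The 14 measured carriers shown reach 3 or 4 arrays in at least 1 channel and 13 carriers have no bar.

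Slc25a3, the phosphate carrier that supplies ATP synthase, has 3 probes on chromosome 10 and none was measured. The probe at chr10:90676988-90677529 was well above background on 1 treated array and 0 control arrays. Its log2 levels were 6.49, 6.26, 6.23 and 6.26 in the treated pools (replicates 1 to 4) and 6.18, 6.26, 6.23 and 6.21 in the control pools, and no ratio is read from them. Coordinates are given in mouse build mm7, as in the files. A further probe of Slc25a3 is among 4 of the 53 carrier probes (7.55%) that hold, in a frame without stop codons, codons for the carrier signature of proline, any residue, an acidic residue, any 2 residues and a basic residue. Of all 41174 probes 0.624% hold such codons, and a match in these letters is a description, not a test. The signature is shown here because it is what the family's members share in sequence, with its 18 bases in capitals, for the probe of Slc25a3 at chr10:90680977-90681034 (minus strand), of Slc25a26 at chr6:94686499-94687292 (plus strand) and of Slc25a30 at chr14:70449984-70450552 (minus strand).
Slc25a3: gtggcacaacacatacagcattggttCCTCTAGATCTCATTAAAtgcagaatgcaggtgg
Slc25a26: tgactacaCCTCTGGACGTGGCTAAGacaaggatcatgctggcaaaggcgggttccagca
Slc25a30: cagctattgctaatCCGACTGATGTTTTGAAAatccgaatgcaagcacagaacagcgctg
None of these 3 probes was itself among the measured ones. Slc25a26 was measured by another probe, 5379 bases downstream.

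Where a probe lies along its gene went with whether it was measured. Among the 7 carriers with both measured and unmeasured probes on 1 strand, the probe nearest the 3′ end was measured for 6 (85.7%) and the probe nearest the 5′ end for 2 (28.6%). Over all 3192 such genes the shares were 70.8% and 21.1%, so the carriers had the same order as the other genes. The 2 carriers included Slc25a37, by a probe 220646 bases upstream, and whether it reads the same transcript was not tested. Distances are along the genome and are not lengths of transcript. Slc25a4 had its measured probe at chr8:44985343-44985402 and an unmeasured one 1613 bases upstream, and for Slc25a24 and Slc25a17 the unmeasured probe lay 7048 and 4727 bases upstream. The exception was Slc25a12, whose probe nearest the 3′ end, listed in the files under the clone name B230107K20Rik, was not measured, while one 3163 bases upstream was. Of the 32 carriers 17 have a single probe, so for these the part of the transcript read was not varied.

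The comparison of treated with control pools asks which transcripts differ after pressure. No carrier passed the test by limma at an adjusted p of 0.05, in either direction, and the same was true of all 6917 tested genes (0% higher and 0% lower). Without adjustment 2 of the 15 carriers were under 0.05, Slc25a11 and Slc25a12, against 4.19% of all tested genes; both lay below 0, as did 3.46% of all tested genes at that p. The median log2 ratio of treated over control was -0.02 over the 15 carriers and -0.02 over all tested genes. Single carriers ran from -1.18 to 0.53, with 8 below 0 and 7 above, where 52.5% of all tested genes lay below 0. One carrier, Slc25a11, was below 0 on all 4 arrays, against 9.35% of all genes with 4 values, and 0 were above 0 on all 4, against 2.94%. For all 15 carriers the treated and control levels overlapped; they did not overlap for 1.14% of all genes.

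The carriers as a group differed in direction between arrays. Their median log2 ratio was 0.24, -0.04, -0.56 and 0.33 on replicates 1 to 4, and 7, 9, 12 and 7 of the 15 lay below 0 on those arrays. Over all tested genes the medians were -0.0004, -0.02, -0.04 and -0.04, with 3452, 3851, 3693 and 3664 of 6917 below 0. The mean of the carrier medians was -0.01 ± 0.40 (SD, n = 4). The median over carriers of the SD between arrays was 0.71, against 0.52 over all tested genes. An exact two-sided sign-flip test over 4 arrays cannot give a p below 0.125.

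**Figure D2:**
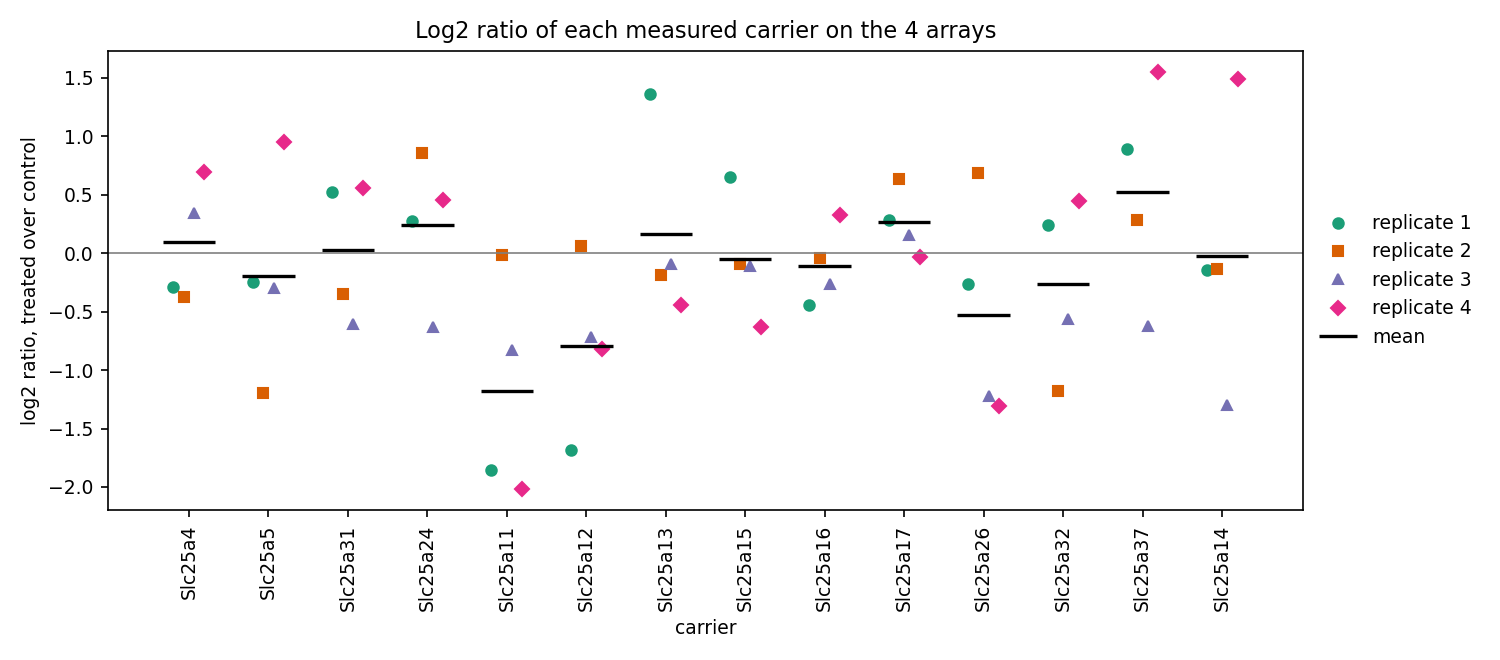
Log2 ratio of treated over control for 14 measured carriers in the order of their cargo, with 1 symbol for each replicate and a black line at the mean. Slc25a11 alone has all 4 points below 0, and the other carriers shown have points on both sides of 0.

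The ADP/ATP carriers exchange matrix ATP for cytosolic ADP, and 3 isoforms were measured. Slc25a5, the isoform of most dividing tissues, had log2 levels of 10.54, 9.78, 10.24 and 10.74 in the treated pools and 10.79, 10.97, 10.54 and 9.79 in the control pools. Its treated level was lower on replicates 1 to 3 and higher on replicate 4, and the groups overlapped. Its mean log2 ratio was -0.20 ± 0.36 (SE, n = 4; limma's adjusted p = 0.953).

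Slc25a4, the isoform of heart and muscle, had log2 levels of 7.89, 7.31, 7.97 and 8.37 in the treated pools and 8.17, 7.69, 7.62 and 7.68 in the control pools. It was lower in the treated pool on 2 arrays and higher on the other 2. Its mean log2 ratio was 0.09 ± 0.24 (SE, n = 4; limma's adjusted p = 0.967). Slc25a31, the isoform of germ cells, had log2 ratios of 0.52, -0.35, -0.61 and 0.56, also split between the arrays, with a mean of 0.03 ± 0.27. Levels of different probes are on scales of their own, so the isoforms' levels are not ranked against each other.

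The measured probes of Slc25a4 and Slc25a5 read nearly the same stretch of their transcripts, which bears on how far the isoforms are told apart. Of 1378 pairs of carrier probes this pair was the most alike, with 45 of 54 overlapping bases identical (83.3%) and 9 different, and the next pair shared 14 of 20. The probes are at chr8:44985343-44985402 (minus strand) and chrX:31558243-31558302 (plus strand), and capitals mark the bases they share.
Slc25a4: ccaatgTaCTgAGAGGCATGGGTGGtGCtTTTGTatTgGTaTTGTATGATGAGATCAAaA
Slc25a5: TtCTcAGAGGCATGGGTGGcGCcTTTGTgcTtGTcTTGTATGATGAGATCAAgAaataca
The log2 ratios of both were below 0 on replicates 1 and 2, and on replicate 3 they differed in sign (0.35 for Slc25a4, -0.30 for Slc25a5), while both were above 0 on replicate 4. How much RNA of one binds the probe of the other was not tested. The probe of Slc25a31, at chr3:40491533-40491592 (plus strand), lies in another stretch and is shown for comparison, with no bases marked.
Slc25a31: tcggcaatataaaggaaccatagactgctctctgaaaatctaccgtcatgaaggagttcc

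Slc25a24, which exchanges ATP-Mg for phosphate and responds to calcium, had log2 levels of 7.36, 8.35, 8.46 and 7.98 in the treated pools and 7.09, 7.49, 9.09 and 7.53 in the control pools. The treated pool was higher on 3 arrays and lower on replicate 3. On average the log2 ratio was 0.24 ± 0.28 (SE, n = 4; limma's adjusted p = 0.930), with 0.03 without replicate 2 and 0.53 without replicate 3.

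The carrier with the lowest ratio was Slc25a11, which exchanges oxoglutarate for malate and is a step of the malate-aspartate shuttle that carries reducing equivalents from cytosolic NADH into mitochondria. Its log2 levels were 6.0, 6.72, 7.07 and 6.68 in the treated pools and 7.85, 6.74, 7.90 and 8.70 in the control pools. Every treated level was below its own control level, with log2 ratios of -1.86, -0.02, -0.83 and -2.02, but the groups overlapped, since replicate 3 treated (7.07) lay above replicate 2 control (6.74). The mean log2 ratio was -1.18 ± 0.38 (SE, n = 4), or 0.441 times the control, from levels of 6.62 ± 0.45 in treated and 7.80 ± 0.81 in control pools (SD). limma's unadjusted p was 0.023 and its adjusted p 0.929, and an exact two-sided sign-flip test gave 0.125, the smallest it can give. This was the 28th lowest mean of 6917 genes, and 0.896% of all tested genes had a mean of -1 or lower. Without replicate 1 the log2 ratio was -0.96, with an unadjusted p from limma of 0.0829, and leaving out each array gave -1.57 to -0.90. Its probe is at chr11:70725811-70725870. This probe counted as above background on all 4 treated arrays, but its treated level on replicate 1 (6.0) was low. In the same pool Slc25a1, above background on no array, had 6.29, so the size of the ratio there is uncertain.

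The same shuttle uses the calcium-sensitive aspartate/glutamate carriers Slc25a12 (aralar) and Slc25a13 (citrin). Slc25a12 had log2 levels of 6.16, 6.62, 7.13 and 7.39 in the treated pools and 7.85, 6.56, 7.85 and 8.20 in the control pools. As with Slc25a11, replicate 2 showed almost no difference and the other 3 arrays were lower in the treated pool. The mean log2 ratio was -0.79 ± 0.31 (SE, n = 4), with an unadjusted p of 0.045 and an adjusted p of 0.929 from limma, and -0.49 without replicate 1, with an unadjusted p of 0.114. Here too the treated level on replicate 1 (6.16) was below the 6.29 of Slc25a1. Slc25a13 had log2 levels of 8.75, 8.65, 7.60 and 8.31 in the treated pools and 7.40, 8.84, 7.68 and 8.75 in the control pools. Only replicate 1 was higher in the treated pool. The mean was 0.16 ± 0.34 (SE, n = 4), and -0.24 without replicate 1.

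**Figure D3:**
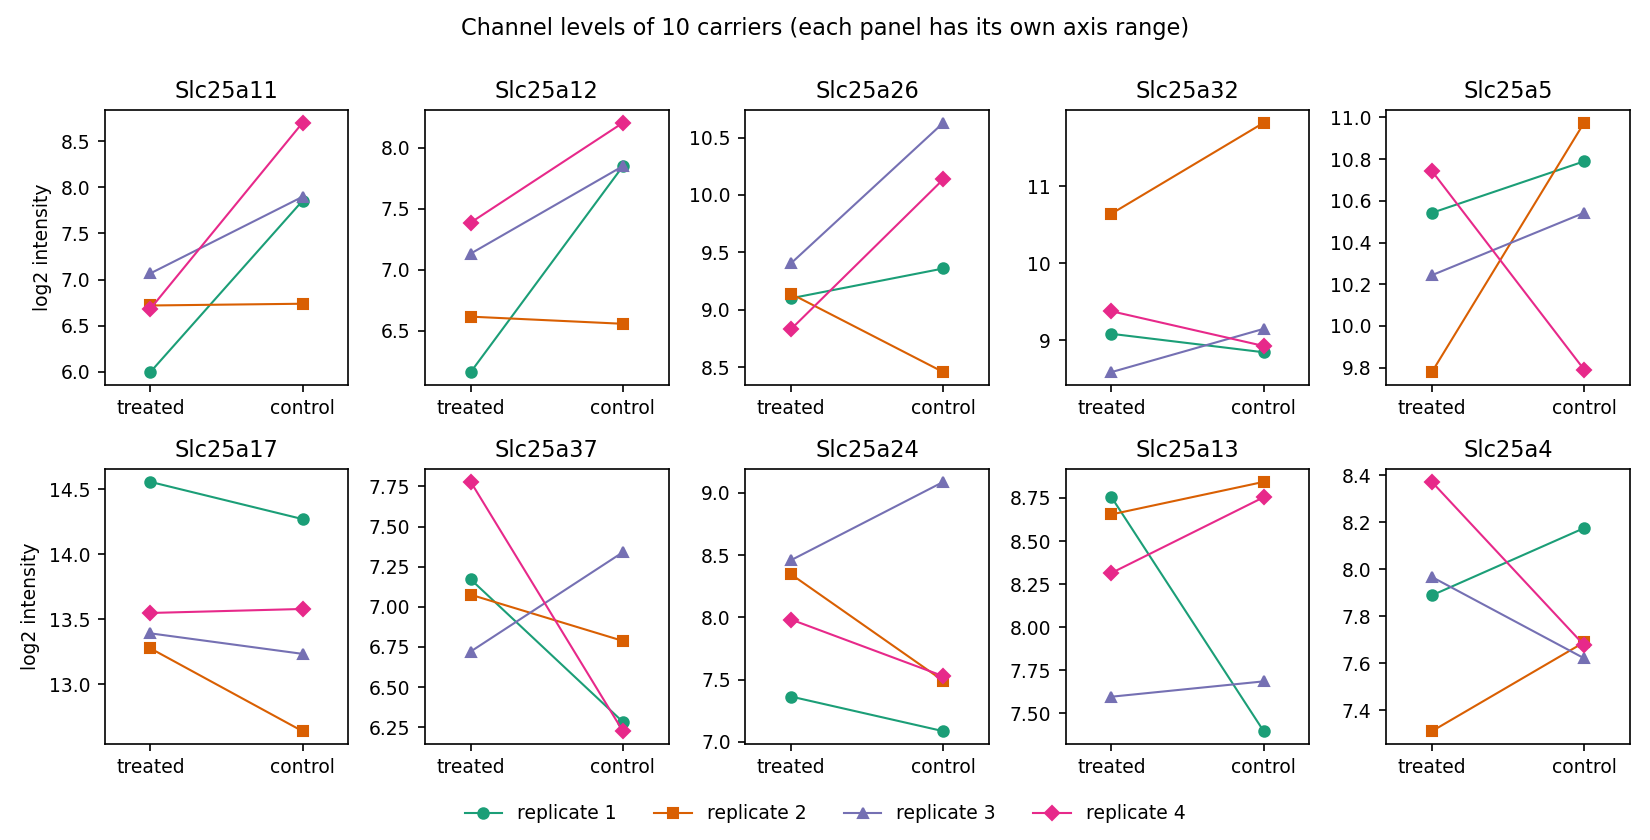
Log2 intensity of 10 carriers in the treated pool (left) and the control pool (right) of each array, joined by a line per replicate, with an axis range for each panel. The lines of Slc25a11 all run upward from treated to control, and each other panel has lines running both ways.

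The enzymes of the malate-aspartate shuttle were set beside these carriers after their values were seen. Mdh2, mitochondrial malate dehydrogenase, had the smallest p of the 17 measured enzymes that make or use carrier cargo. Its log2 levels were 6.08, 7.49, 7.14 and 6.94 in the treated pools and 7.47, 7.84, 7.86 and 8.12 in the control pools, lower in the treated pool on all 4 arrays and with overlap only through replicate 2 treated. Its mean log2 ratio was -0.91 ± 0.23 (SE, n = 4; limma's adjusted p = 0.929), and -0.75 without replicate 1. Its treated level on replicate 1 (6.08) was below the 6.29 of Slc25a1, a carrier above background on no array. Mdh1, the cytosolic malate dehydrogenase, had 0.24 ± 0.30. The aminotransferases Got1 and Got2 had -0.08 ± 0.16 and 0.29 ± 0.35, so the 7 genes of the shuttle lay on both sides of 0. Without replicate 1, Mdh1 had 0.25, Got1 -0.03 and Got2 0.69. For Got2 limma's unadjusted p was then 0.0233 and its adjusted p 0.37. Over the 17 enzymes the median was 0.06, with 7 below 0 and 10 above, 1 below 0 on all 4 arrays and 0 called. The second enzyme by p was Mthfd2, of mitochondrial folate metabolism, at 0.22 ± 0.21.

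Among the carriers of nucleotides, cofactors and metals, Slc25a26 brings S-adenosylmethionine, the methyl donor, into mitochondria. Its log2 levels were 9.10, 9.14, 9.41 and 8.83 in the treated pools and 9.36, 8.46, 10.63 and 10.14 in the control pools. The treated pool was lower on 3 arrays and higher on replicate 2. This gave a mean log2 ratio of -0.53 ± 0.38 (SE, n = 4; limma's adjusted p = 0.929). It was -0.93 without replicate 2, -0.29 without replicate 3 and -0.27 without replicate 4.

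Slc25a32, the folate/FAD carrier, had log2 levels of 9.08, 10.64, 8.59 and 9.38 in the treated pools and 8.84, 11.82, 9.15 and 8.93 in the control pools. It was split between the arrays, with both pools of replicate 2 above all others. Its mean log2 ratio was -0.26 ± 0.32 (SE, n = 4; limma's adjusted p = 0.930), and 0.0428 without replicate 2.

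Slc25a17, which lies in the peroxisomal membrane and carries cofactors such as coenzyme A, FAD and NAD, had log2 levels of 14.56, 13.28, 13.39 and 13.55 in the treated pools and 14.27, 12.64, 13.23 and 13.58 in the control pools. The treated pool was higher on 3 arrays and level with the control on replicate 4, at a log2 ratio of -0.03. The mean was 0.26 ± 0.19 (SE, n = 4; limma's adjusted p = 0.929), and its other measured probe had a mean of 0.10.

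Slc25a37, which imports iron for haem and iron-sulphur clusters, had the highest mean of the carriers. Its log2 levels were 7.17, 7.08, 6.72 and 7.78 in the treated pools and 6.28, 6.79, 7.34 and 6.22 in the control pools. The treated pool was higher on replicates 1, 2 and 4 and lower on replicate 3. On replicates 1 and 4, which had the largest ratios, the control levels were close to those of Slc25a1 (6.20 and 6.31), above background on no array. The size of those ratios for Slc25a37 is therefore uncertain. Its mean log2 ratio was 0.53 ± 0.37 (SE, n = 4; limma's adjusted p = 0.929), and leaving out each array gave 0.19 (without replicate 4) to 0.91 (without replicate 3). A second measured probe listed under this name, 220646 bases upstream, had a mean of 0.30. It was above background on 3 treated and 0 control arrays, so the filter favoured a ratio above 0 for it. Whether it reads the same transcript was not tested.

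The other carriers described singly had small means with points on both sides of 0. The ornithine carrier Slc25a15 had log2 ratios of 0.65, -0.09, -0.11 and -0.64, with a mean of -0.05 ± 0.25 (SE, n = 4). Slc25a16 had -0.44, -0.04, -0.27 and 0.33, with a mean of -0.11 ± 0.20. For Slc25a15 the highest ratio was on replicate 1 and the lowest on replicate 4. Slc25a14, the uncoupling-related carrier, had the widest spread of the 15, with log2 ratios of -0.15, -0.13, -1.30 and 1.49 and a mean of -0.02 ± 0.45.

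The array holds 19 more genes of the family under other names, 14 of them now called Slc25a in RefSeq's table, and 6 of the 19 were tested, which makes 21 tested of 51 family genes. Their median log2 ratio was 0.07, with 3 below 0, 3 above and 0 called. Slc25a39, a mitochondrial glutathione carrier that the files list under a clone name, had the highest mean of all 6917 tested genes. Its log2 levels were 15.74, 17.09, 17.75 and 17.88 in the treated pools and 17.00, 15.41, 14.75 and 14.61 in the control pools. Replicates 2 to 4 were higher in the treated pool and replicate 1 lower, so the groups overlapped through replicate 1. After normalization between arrays the average of both channels was the same on replicates 2 to 4, so the levels there add nothing to the ratios. The mean log2 ratio was 1.67 ± 0.78 (SE, n = 4), with an unadjusted p of 0.081 and an adjusted p of 0.929 from limma. Without replicate 1 it was 2.65, with an unadjusted p of 0.00145 and an adjusted p of 0.169. The mean depended on the normalization, at 0.82 with median centring in place of loess and 0.88 with the authors' values, and why was not tested. Of all tested genes 1.19% had a mean of 1 or higher. Its probe is at chr11:102512264-102512323.

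Slc25a40, the close relative of Slc25a39, had log2 ratios of -0.44, 0.05, -0.68 and -1.46, with a mean of -0.63 ± 0.28 (SE, n = 4; limma's adjusted p = 0.929), and -0.36 without replicate 4. The pyrimidine nucleotide carrier Slc25a33 had a mean of 0.16 ± 0.20, the NAD carrier Slc25a51 -0.03 ± 0.44, the branched-chain amino acid carrier Slc25a44 -0.06 ± 0.16 and the outer membrane protein Mtch1 0.43 ± 0.43. Without replicate 1, Slc25a40 had -0.69, Slc25a33 -0.01, Slc25a51 -0.22, Slc25a44 -0.05 and Mtch1 0.96. For Mtch1 limma's unadjusted p was then 0.0096 and its adjusted p 0.25. The uncoupling proteins Ucp1, Ucp2 and Ucp3 were above background on no array.

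**Figure D4:**
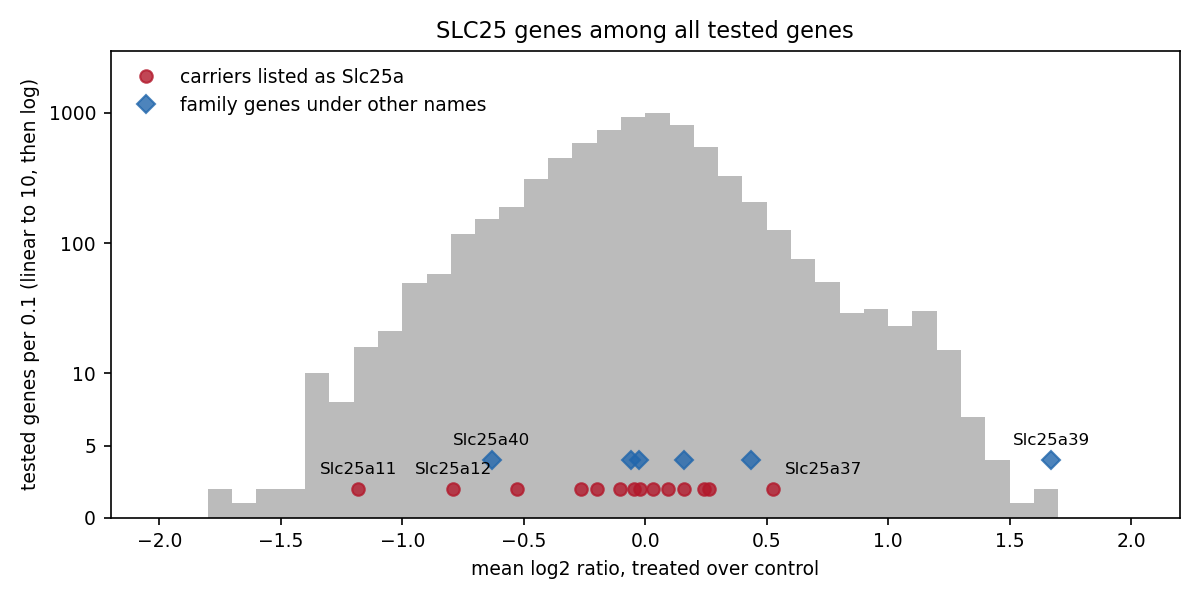
Histogram of the mean log2 ratio of treated over control for 6917 tested genes in steps of 0.1, with the count axis linear up to 10 and logarithmic above, and with 14 measured carriers (red circles) and 6 family genes under other names (blue diamonds) placed at their means. Slc25a11 at -1.18 and Slc25a39 at 1.67 lie in the tails, and the other family genes shown lie between -0.79 and 0.53.

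Carriers reach the inner membrane through the outer membrane receptor Tomm70 and the small Tim chaperones of the intermembrane space. Of 16 genes of this import path 6 were measured. Their median log2 ratio was -0.49, with 6 of 6 below 0, where 52.5% of all tested genes were, and 0 called. Tomm70a was tested through the control pools alone, being above background in 2 treated and 4 control pools, so the filter favoured a ratio below 0 for it. Of the 4 genes above background in both channels on all 4 arrays (Timm8b, Tomm7, Timm8a1 and Timm10), 4 had a mean below 0, at a median of -0.48, where 47% of all genes so detected did. Timm8b, a small Tim chaperone, had log2 levels of 8.09, 8.75, 8.18 and 7.73 in the treated pools and 8.37, 9.36, 9.24 and 8.38 in the control pools. It was lower in each treated pool than in its control, with overlapping groups, at a mean log2 ratio of -0.65 ± 0.19 (SE, n = 4; limma's unadjusted p = 0.0177, adjusted p = 0.929). Without replicate 1 it was -0.78 (limma's unadjusted p = 0.0128, adjusted p = 0.286). Timm10b, which holds the chaperones at the carrier translocase, had -1.25, 0.09, -0.40 and -0.94, with a mean of -0.63 ± 0.27. The mean over its 2 measured probes was -0.46.

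Timm8b, Tomm7 and Tomm70a were below 0 on all 4 arrays, where 9.35% of all genes with 4 values were. The median of the 6 was -0.33, -0.35, -0.62 and -0.49 on replicates 1 to 4, below 0 on each array including replicate 1. Over all tested genes it was -0.0004, -0.02, -0.04 and -0.04. Tomm7, a small subunit of the outer membrane pore, had a mean log2 ratio of -0.66 ± 0.32, which was -0.30 without replicate 3, and Tomm70a had -0.36 ± 0.17. The small Tim chaperones Timm8a1 and Timm10 had -0.30 ± 0.27 and -0.15 ± 0.22 (SE, n = 4), with ranges of -0.59 to -0.16 and -0.36 to -0.06 when each array was left out.

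Of 18 other mitochondrial transporters 10 were measured, with a median of -0.21 and 0 called, and 8 lay below 0, where 52.5% of all tested genes did. With both channels above background on all 4 arrays, 5 were left, at a median of -0.24. Of these, 4 lay below 0, where 47% of all genes so detected did. Vdac2, a pore of the outer membrane through which metabolites pass on their way to the carriers, had log2 levels of 9.87, 9.35, 7.54 and 8.84 in the treated pools and 11.48, 9.44, 9.54 and 10.49 in the control pools. The treated pool was lower on all 4 arrays, with the smallest gap on replicate 2 (a log2 ratio of -0.09), and the groups overlapped. The mean log2 ratio was -1.33 ± 0.35 (SE, n = 4; limma's unadjusted p = 0.0106, adjusted p = 0.929), and -1.24 without replicate 1. Vdac1 had -0.49 ± 0.24 on 3 arrays, since its spot on replicate 4 carried an outlier flag and was left out, and -0.30 without replicate 2. Its other measured probe, above background in both channels on all 4 arrays, had a mean of -0.24, and it stands for Vdac1 among the 5. The mean over both probes was -0.37. Vdac3 had -0.46 ± 0.43, with -0.0835 without replicate 3 and -0.95 without replicate 4. The 3 transporters below 0 on all 4 arrays were Vdac2, the pyruvate carrier subunit Mpc2 at -0.18 ± 0.16 and the calcium uniporter regulator Micu2 at -0.31 ± 0.18. Of all genes with 4 values, 9.35% were. Micu2 was tested through the control pools alone, being above background in 1 treated and 3 control pools, so the filter favoured a ratio below 0 for it. The same held for Sfxn5, at -0.14 ± 0.24, which was above background in 2 treated and 4 control pools.

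**Figure D5:**
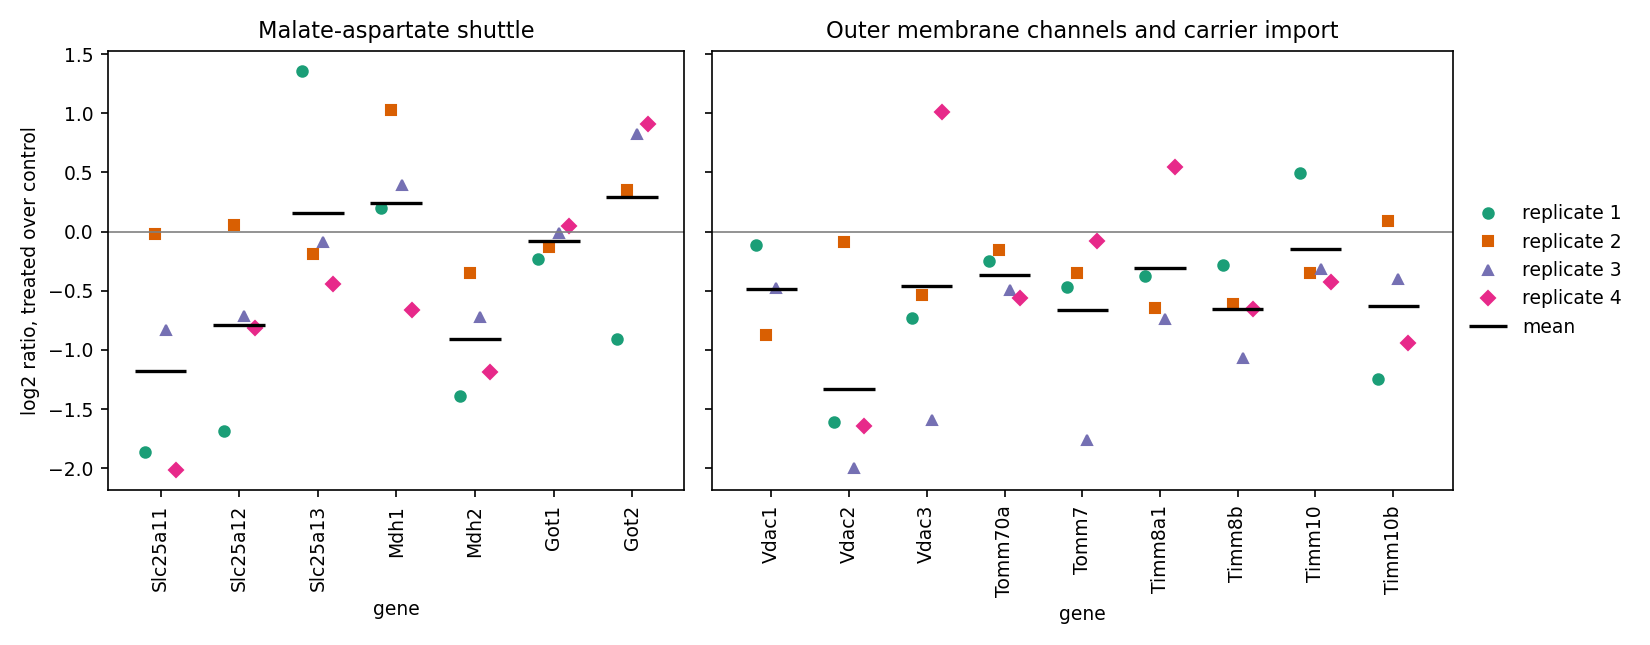
Log2 ratio of treated over control on each array for the malate-aspartate shuttle (left) and for the outer membrane channels and the import path (right), with 1 symbol for each replicate and a black line at the mean. Slc25a11 and Mdh2 on the left, and Vdac2, Timm8b, Tomm7 and Tomm70a on the right, have 4 points below 0, and Vdac1 has 3 points.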

How the data were processed

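The deposited scanner files hold intensity values of each spot in both channels, which per the submitters' processing notes came from Agilent Feature Extraction 9.5.1.1, and a log10 ratio of processed signals, per the file headers. The authors' deposited value table equals that log10 ratio to within 5e-10, so its scale and direction (treated over control) were known, and it served as an alternative.

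From the mean and median background intensity, normexp (offset 50) and loess within arrays were run in limma 3.58.1 under R 4.3.3, with control spots at weight 0. Control spots and outlier flags were then left out and spots of a probe averaged. Of 41174 probes 8108 were kept, and the brightest kept probe stood for a gene. Each gene's log2 ratio was set against 0 by lmFit and eBayes, p-values were adjusted by Benjamini-Hochberg over 6917 genes, and the code was first tested on simulated data. Levels are log2 intensity after loess and Aquantile. Names were updated through RefSeq's table of GRCm38.p6 (5029 genes by accession, 816 by symbol, 379 by synonym, 693 not matched). Probe sequences are those of the files.

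The rule named every measured carrier (1 is counted in the summaries and not reported here), gave levels in full for the 4 with the smallest p in each direction and for Slc25a3, Slc25a4 and Slc25a5, and named the 2 members of each companion list with the smallest p. Other genes of those lists were named after their values were seen. The members, the lists and the alternatives were chosen with earlier results of these data known. Alternatives covered background correction, normalization, looser and stricter limits on dim probes, means over a gene's probes, array weights, eBayes settings, the authors' values, a separate-channel model and each array left out in turn. No alternative was added after the files were analysed. With 1 slide and 1 scan for the 4 arrays, no batch block was possible.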

Additional observations from a re-analysis of the deposited data

Results flagged for a closer look

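Of 40 sets of 4 array values checked with Dixon's test, 1 set held an array that stood clear of the remaining 3; about 5% do so by chance. Timm10, a small Tim chaperone of the import path, had a log2 ratio of 0.49 on replicate 1, while the other arrays lay between -0.43 and -0.31. The part of replicate 1 in this value was not tested further.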

How the results depend on the processing

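Under every alternative run, 0 carriers and 0 genes passed; the lowest adjusted p from limma over the alternatives was 0.169 (without replicate 1), and 134 to 757 genes were under an unadjusted p of 0.05, against 290 as reported. The reported test is the paired analysis, since each ratio sets the pools of 1 array against each other, and a separate-channel model gave 0 calls too. Over the settings Slc25a11 ran from -2.50 to -0.64, Slc25a12 from -1.21 to -0.42, Slc25a39 from 0.82 to 2.65 and Vdac2 from -1.89 to -0.94, and none of these turned its sign.

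Without the filter on dim probes 32 carriers had a value, 15 of them below 0, and the import path median was -0.0419. Median centring put the median over all tested genes at -0.34, and 14 carriers then lay below 0. The medians were -0.49 for carriers, -0.80 for the import path, -0.52 for other transporters and -0.46 for enzymes. Processed signals and the authors' values both gave -0.90 for the import path and -0.71 for other transporters, and no background subtraction gave -0.67 for the import path. Leaving out 1 array gave 5 to 9 carriers below 0 (5 without replicate 2), a carrier median of -0.14 to 0.04, an import path median of -0.55 to -0.31, -0.36 to -0.13 for other transporters, 0.02 to 0.07 for enzymes and -0.03 to 0.23 for the family under other names.

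The sign turned for the genes given next. With median centring, log2 ratios were -0.34 for Slc25a4, -0.36 for Slc25a31, -0.31 for Slc25a24, -0.35 for Slc25a13, -0.49 for Slc25a17, -0.24 for Slc25a33, -0.23 for Mtch1, -0.0871 for Got2 and -0.46 for Mdh1. Array weights gave -0.042 for Slc25a4, -0.24 for Slc25a31 and -0.0496 for Slc25a13. Processed signals and the authors' values gave -0.18 for Slc25a4 and -0.57 for Slc25a31, and no background subtraction gave -0.0636 and -0.19. Scaling between arrays gave -0.17 for Slc25a4, -0.21 for Slc25a31, -0.0079 for Slc25a13 and 0.0673 for Slc25a26. Leaving out 1 array gave -0.11 to 0.25 for Slc25a4, -0.58 to 0.14 for Slc25a5, -0.14 to 0.24 for Slc25a31, -0.24 to 0.36 for Slc25a13, -0.28 to 0.15 for Slc25a15, -0.25 to 0.006 for Slc25a16, -0.50 to 0.0428 for Slc25a32, -0.53 to 0.40 for Slc25a14, -0.0131 to 0.26 for Slc25a33, -0.45 to 0.37 for Slc25a51 and -0.0226 to 0.54 for Mdh1. The cause of these turns was not tested.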
